A study of Homo sapiens with 15 samples.

Results

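Ribosomal protein and translation factor genes were examined in Caco-2, a cell line from a human colon carcinoma that differentiates towards absorptive enterocytes in long confluent culture. The 3 groups held 5 arrays each. LPS+RSV cells received 50 µM trans-resveratrol (RSV, a plant polyphenol dissolved in ethanol) 1 h before 48 h with 1 µg/mL lipopolysaccharide (LPS, an endotoxin that activates the receptor TLR4, here from E. coli). LPS cells received the same endotoxin alone, and control cells were untreated. The labels do not say whether LPS or control cells were given ethanol, nor whether the numbered replicates came from separate cultures, so the p-values below rest on sample-to-sample spread that could be technical. Members were taken by gene symbol: those starting with RPL or RPS plus a digit, RPLP, EIF or EEF, without RPS6K symbols and without symbols ending in P and a number, with the brightest probe set of each symbol. That gave 90 of the 14884 symbols named on the array. They comprised 53 ribosomal protein genes (35 RPL and 18 RPS symbols, paralogs included), 28 initiation and elongation factor genes, and 9 others, namely 3 methyltransferases of the elongation factor eEF1A, 2 read-through transcripts and 4 divergent or antisense RNAs.

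The cytosolic ribosome joins a small subunit, which decodes the messenger RNA, to a large subunit, which forms peptide bonds and holds the exit tunnel of the new protein. Initiation factors bring the small subunit and the initiator tRNA to the capped end of the messenger RNA, and elongation factors deliver aminoacyl-tRNAs and move the ribosome along. Messenger RNAs of most ribosomal proteins and of several factors begin with a run of pyrimidines, the 5′ terminal oligopyrimidine tract, through which the growth-regulating kinase complex mTORC1 controls their translation. The intestinal epithelium renews itself continuously and relies on a high rate of protein synthesis.

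The annotated transcription starts of some of the genes the results turn on are shown to display this feature of many ribosomal protein genes. Each line gives 10 bases before the start and 20 bases from the start on, from RefSeq on GRCh38.p14, read 5′ to 3′ on the strand of the gene. Capitals mark a tract, defined as a C at the annotated start followed by at least 4 further bases that are each C or T, and the capitals run to its last pyrimidine.
RPL39 (chrX:119791611-119791640, minus strand): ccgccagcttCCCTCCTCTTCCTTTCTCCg
RPL36 (chr19:5690285-5690314, plus strand): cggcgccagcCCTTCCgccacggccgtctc
RPL41 (chr12:56116623-56116652, plus strand): cttcgcctttCTCTCggccttagcgccatt
RPS18 (chr6:33272065-33272094, plus strand): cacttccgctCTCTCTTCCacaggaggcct
RPS14 (chr5:150449720-150449749, minus strand): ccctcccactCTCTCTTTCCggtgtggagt
RPS6 (chr9:19380217-19380246, minus strand): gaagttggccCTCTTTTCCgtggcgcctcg
EEF2 (chr19:3985444-3985473, minus strand): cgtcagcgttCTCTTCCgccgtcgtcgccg
EEF1A1 (chr6:73521013-73521042, minus strand): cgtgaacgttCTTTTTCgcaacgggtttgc
RPL19 (chr17:39200273-39200302, plus strand): tctccccttcgcagataatgggaggagccg
EIF4E (chr4:98929114-98929143, minus strand): tggagcggttgtgcgatcagatcgatctaa
EIF5B (chr2:99337379-99337408, plus strand): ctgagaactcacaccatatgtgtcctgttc
The tract was 19 bases long in RPL39, 10 in RPS14 and 5 in RPL41, and the windows of RPL19, EIF4E and EIF5B held none at the annotated start. RPL27, EEF1G, EIF6 and EEF2K, whose windows are not shown, had none there either. Start windows were at hand for 80 members. A tract stood at the start of 29 of 48 ribosomal protein genes (60.4%), of 4 of 25 factor genes (16.0%: EEF1A1, EEF2, EIF2D and EIF4B) and of 1104 of all 27305 gene starts in the RefSeq table (4.04%). A window without a tract says only that these letters were not at that annotated position.

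All values below are log2 expression values made by the authors with RMA, 1 per probe set and array, and differences are on the same scale. A gene was tested if its value lay above the 40th percentile of its array on at least 5 of the 15 arrays. This held for 87 members, of which 86 lay above that level on every array. The members below it were RPL10L and RPL39L, which are paralogs known mainly from the testis, and the antisense RNA EIF1B-AS1. RPLP0, RPL3, EIF4G1 and EIF2S1 had no probe set named here, nor did any eIF3 or eIF2B subunit. Array medians lay between 5.49 and 5.54, and pairs of arrays correlated at 0.922 to 0.994 over all rows. LPS+RSV replicate 1 and LPS replicates 1 and 2 stood apart from the other arrays of their groups, and a score of 26 proliferation genes, the mean log2 deviation of each gene from its own mean over the 15 arrays, spanned -0.933 to 0.472 in LPS+RSV, -0.0264 to 1.04 in LPS and -1.07 to 0.480 in control cells. Enterocyte and colon epithelium markers were present (9 of 9 with a probe set were tested, with mean log2 values of 6.07 to 12.65), against 1 leukocyte marker at 6.33, 2 endothelial markers at 5.56 and 5.78 and 1 of 2 fibroblast markers. Whole cultures were profiled, so fewer cells of a state and less RNA per cell cannot be told apart.

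With resveratrol before LPS, most ribosomal protein genes were slightly higher than with LPS alone. Of the 51 tested, 41 were higher (80.4%), with a median log2 difference of 0.086 and a range of -0.18 to 0.50, whereas 52.1% of all 11804 genes tested were higher, with a median of 0.008. No member had an adjusted p under 0.05 in limma, with Benjamini-Hochberg adjustment over every gene tested (lowest adjusted p = 0.127), a threshold that 0.0424% of all genes passed. At an unadjusted p under 0.05, 13 members were higher (14.9%) and 4 lower (4.6%), beside 8.08% of all genes higher and 10.5% lower. All 10 ribosomal protein genes among these 17 were higher. The 95% confidence intervals of the other 41 ribosomal protein genes held 0.

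**Figure D1:**
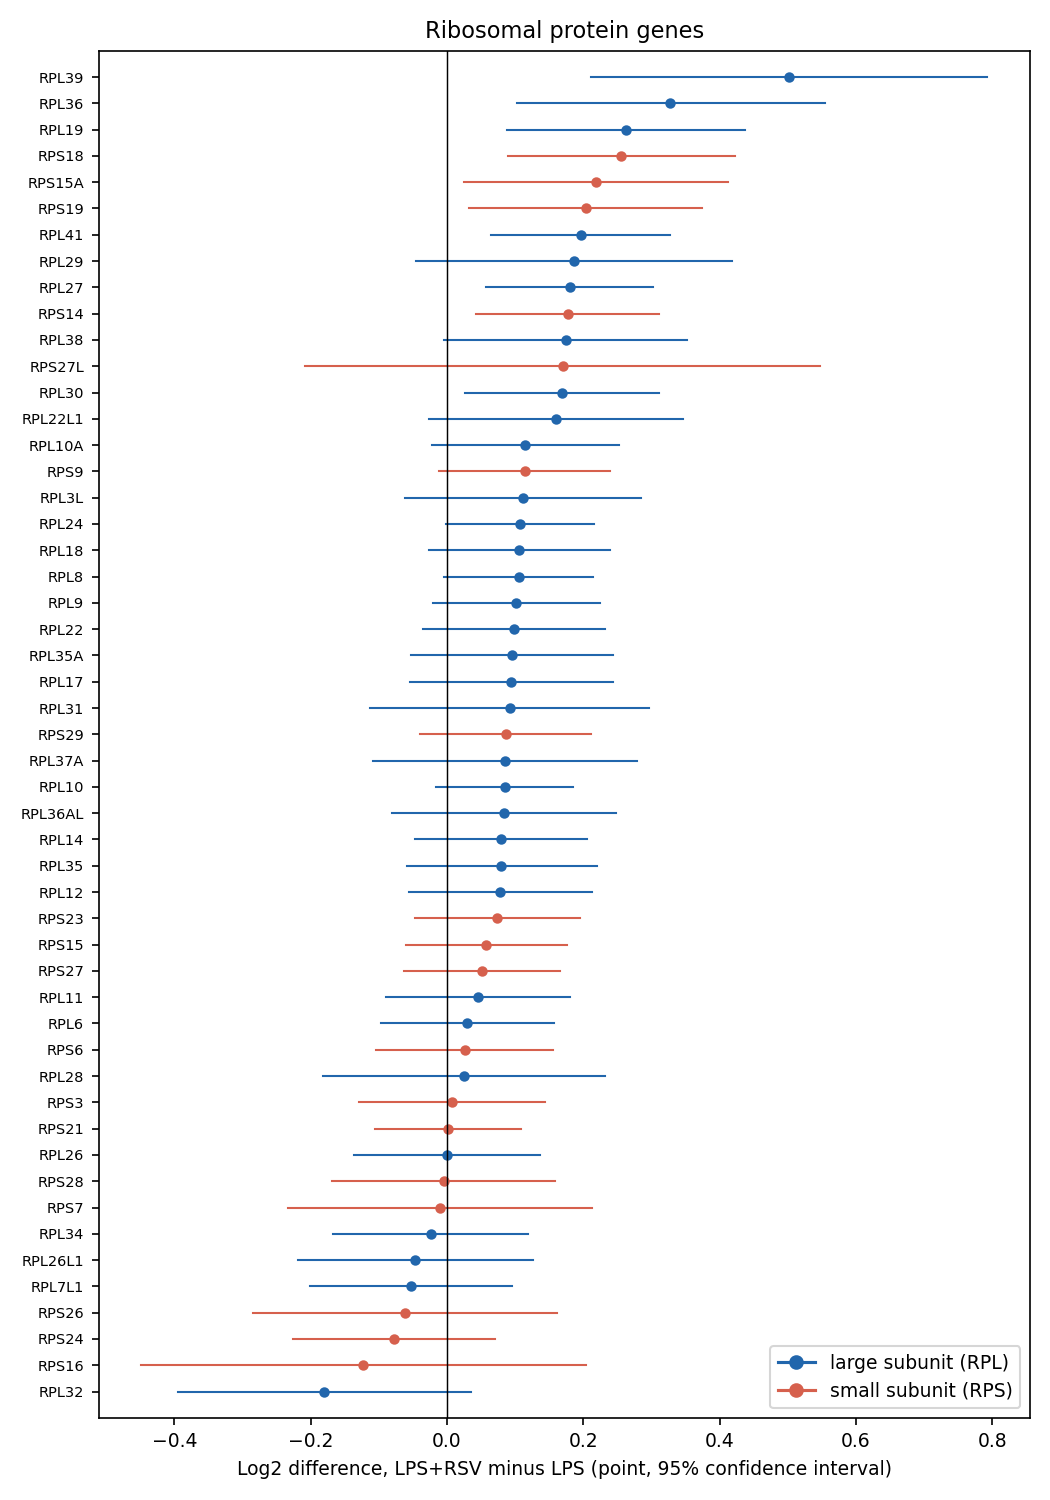
Log2 difference between LPS+RSV and LPS for each of the 51 tested ribosomal protein genes (point) with its 95% confidence interval from limma (line), sorted by difference, with large subunit symbols in blue and small subunit symbols in red. Of the 51 points, 41 lie right of 0, from RPL39 at 0.50 at the top to RPL32 at -0.18 at the bottom, and most intervals reach 0.

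The largest differences were in large subunit genes. RPL39, a small protein of the exit tunnel wall, had log2 values of 10.29, 9.54, 9.71, 9.78 and 9.97 in LPS+RSV, of 9.06, 9.47, 9.69, 9.23 and 9.32 in LPS, and of 9.33, 9.21, 9.31, 9.49 and 9.63 in control cells. LPS replicate 3 and control replicate 5 were the only arrays without resveratrol that reached into the LPS+RSV range. Its difference of 0.50 ± 0.14 (SE), or 1.42-fold, was the largest of all members in the comparison with LPS (limma adjusted p = 0.127, unadjusted p = 0.00213). It was 0.29 with the proliferation score as a covariate. RPL36 followed with 11.19, 10.74, 10.87, 10.72 and 10.60 in LPS+RSV against 10.30, 10.55, 10.76, 10.42 and 10.44 in LPS, so that only LPS replicate 3 overlapped the LPS+RSV arrays (0.33 ± 0.11, adjusted p = 0.160). RPL19, which reaches across to the small subunit, measured 11.00, 10.64, 10.62, 10.65 and 10.49 in LPS+RSV against 10.31, 10.40, 10.53, 10.35 and 10.49 in LPS (0.26 ± 0.08, adjusted p = 0.153). Here LPS+RSV replicate 1 was the highest of all arrays and replicate 5 lay within the LPS range.

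Smaller differences separated the groups completely where the arrays agreed closely. RPL41, a very short basic peptide at the subunit interface, had 12.93, 12.84, 12.93, 12.90 and 12.96 in LPS+RSV against 12.81, 12.77, 12.76, 12.62 and 12.61 in LPS (0.20 ± 0.06, adjusted p = 0.153). RPL27 had 11.51, 11.34, 11.44, 11.34 and 11.30 in LPS+RSV against 11.22, 11.17, 11.26, 11.14 and 11.24 in LPS (0.18 ± 0.06, adjusted p = 0.157). RPL10, which lies close to the peptidyl transferase centre, spanned 12.47 to 12.50 in LPS+RSV, 12.37 to 12.43 in LPS and 12.38 to 12.44 in control cells, a difference to LPS of only 0.085 ± 0.048 (adjusted p = 0.350). The LPS+RSV arrays of these 3 genes did not overlap the LPS arrays, and for RPL10 they did not overlap the control arrays either. In all, 6 members (EEF1G, EIF4E2, RPL8, RPL10, RPL27 and RPL41) lay wholly above LPS in LPS+RSV and 0 wholly below, beside 1.41% and 1.39% of all genes.

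Among the 28 large subunit proteins without the paralogs, 25 were higher in LPS+RSV than in LPS. Their median difference was 0.097, and 6 (21.4%) were higher at an unadjusted p under 0.05, beside 8.08% of all genes. These were the 5 above other than RPL10, and RPL30 at 0.17 ± 0.07. The exceptions were RPL32 at -0.18, RPL34 at -0.02 and RPL26 at 0.00, which lay just below 0. Of the 5 tested paralogs and like symbols, RPL22L1, RPL3L and RPL36AL were 0.16, 0.11 and 0.08 higher, and RPL7L1 and RPL26L1 were 0.05 lower each, all with an unadjusted p over 0.05.

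Among the small subunit proteins, 12 of the 17 tested were higher in LPS+RSV than in LPS (median 0.051). RPS18, a protein of the subunit's head, had 9.86, 10.05, 9.76, 9.93 and 9.68 in LPS+RSV against 9.65, 9.43, 9.77, 9.62 and 9.54 in LPS (0.26 ± 0.08, adjusted p = 0.151). RPS14, a protein of the platform whose loss of 1 copy is known from the 5q- syndrome, had 7.13, 7.06, 6.93, 7.08 and 6.99 in LPS+RSV against 6.84, 6.92, 6.75, 6.94 and 6.86 in LPS (0.18 ± 0.06, adjusted p = 0.176). In both genes the groups overlapped only through 1 LPS array, replicate 3 for RPS18 and replicate 4 for RPS14. RPS15A and RPS19, which is mutated in Diamond-Blackfan anaemia, were 0.22 ± 0.09 and 0.20 ± 0.08 higher (adjusted p = 0.224 and 0.202). RPS16 (-0.12), RPS24 (-0.08), RPS26 (-0.06), RPS7 (-0.01) and RPS28 (0.00, just below 0) were on the other side. RPS6, the small subunit protein phosphorylated by the S6 kinases, had 7.91, 7.77, 7.88, 7.89 and 7.91 in LPS+RSV against 7.81, 7.79, 7.86, 7.98 and 7.80 in LPS, a difference of 0.03 with a 95% confidence interval of -0.10 to 0.16. No test of the large against the small subunit was made.

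Most ribosomal protein genes were higher both with and without a start tract. With a tract, 25 of 29 were higher in LPS+RSV than in LPS (86.2%, median 0.092), and without one 12 of 18 were (66.7%, median 0.071). Split by signal, 16 of 18 genes with a mean log2 value of at least 9 were higher (median 0.100), and 25 of 33 dimmer genes (median 0.086). Both splits were chosen after the values were seen and were not tested. FAU, a ribosomal protein of the small subunit whose symbol lies outside the selection, was 0.20 ± 0.07 higher (adjusted p = 0.181). Among 17 tested pseudogene symbols of the same families 10 were higher (median 0.065), and among 73 mitochondrial ribosomal protein genes 46 (median 0.051).

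For 8 members the identity of the probe set is uncertain. Probe sets of this array are mostly numbered along the chromosomes, and for EEF1G, RPL10, RPL12, RPL31, RPL41, RPS18, RPS27 and RPS28 none of the 20 nearest-numbered named probe sets lay on the gene's own chromosome (8.89% of members, against 0.503% of all named probe sets). Ribosomal protein genes have many near-identical processed copies elsewhere in the genome, and probes to a copy cannot be told apart here from probes to the gene. Without the 7 ribosomal protein genes among them, 35 of 44 were higher in LPS+RSV than in LPS (median 0.090). Where another probe set existed, it did not always give the same value: for LPS+RSV minus LPS, the dimmer probe set of EEF1G gave -0.01 and the brightest 0.23, and those of RPS18 gave 0.15 and 0.26. The 4 other probe sets of RPL41 differed by -0.02 to 0.25, and the second ones of RPL19 and RPL39 by 0.41 and 0.16. The second probe set of EIF4B differed by 0.24 and the brightest by 0.06, and those of RPL26L1-AS1 by 0.045 and 0.26. As the mean of its probe sets RPL39 differed by 0.33.

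Averaged over the 51 genes, the ribosomal protein level of each array can be given as the mean log2 deviation of a gene from its own mean over the 15 arrays. This was 0.0267 to 0.0796 in LPS+RSV, -0.0727 to -0.0051 in LPS and -0.0453 to 0.0228 in control cells. The 5 LPS+RSV arrays thus lay above all others, LPS+RSV replicate 1 highest, and LPS replicates 1 and 2 lowest. The highest of the 15 arrays was an LPS+RSV array for 33 of the 51 genes (64.7%, against 43.6% of all genes) and the lowest was an LPS array for 29 (56.9%, against 29.5%). LPS+RSV replicate 1 alone held the highest value for 18 genes (35.3%, against 26.8% of all genes). For 18 genes (35.3%, against 14% of all genes) the lowest value lay in LPS replicate 1 or 2. Without these 2 arrays 38 of 51 genes were higher in LPS+RSV than in LPS (median 0.060), and without LPS+RSV replicate 1 this held for 44 (median 0.082). With the proliferation score as a covariate 43 were higher (median 0.096).

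**Figure D2:**
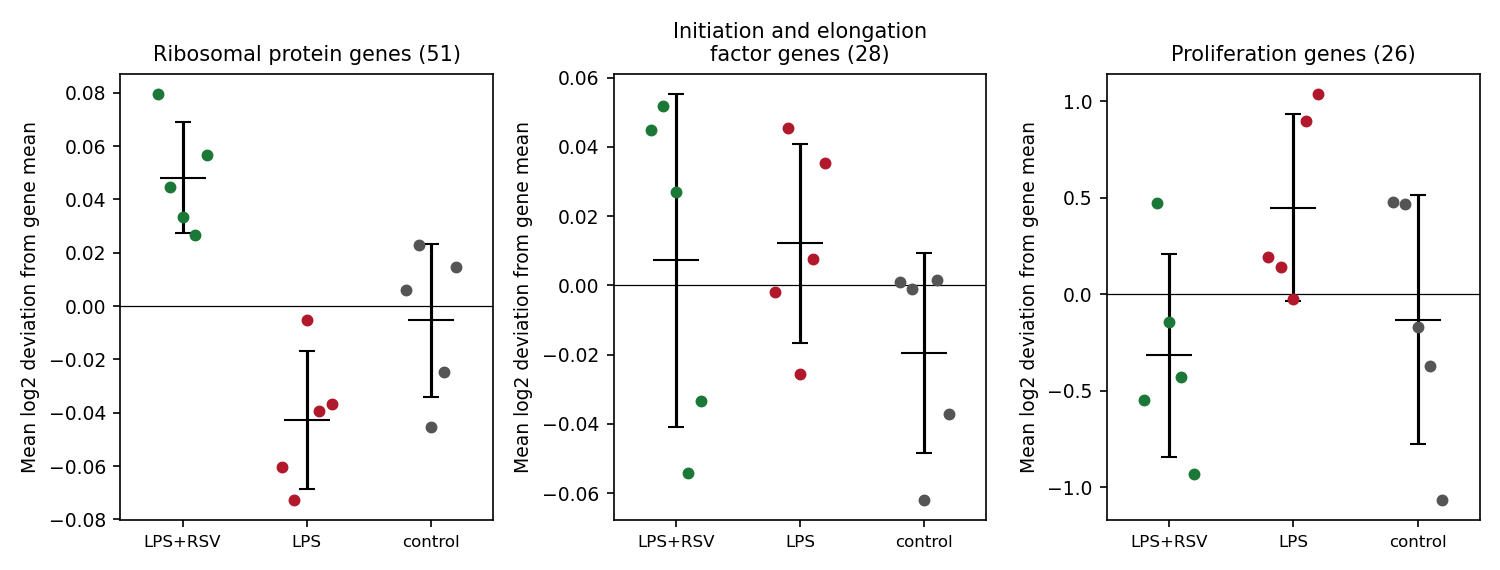
Mean log2 deviation from the gene mean on each array (points) for 51 ribosomal protein genes, 28 initiation and elongation factor genes and 26 proliferation genes, with group mean and SD (bars, n = 5 arrays) in LPS+RSV, LPS and control cells. Ribosomal protein genes averaged 0.0482 in LPS+RSV, -0.0429 in LPS and -0.0053 in control cells, a span far smaller than that of the proliferation genes on their own axis.

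Among the 28 initiation and elongation factor genes, 16 had a higher mean in LPS+RSV cells than in LPS cells (57.1%, against 52.1% of all genes), with a median of 0.043. At an unadjusted p under 0.05, 2 were higher (EEF1G and EIF4E2; 7.14%, against 8.08% of all genes) and 4 lower (EIF5B, EIF5A2, EIF4E and EIF2AK3; 14.3%, against 10.5%), shares near those of all genes. No test between the factors and the ribosomal proteins was made. Their average per array was 0.0073 ± 0.048 in LPS+RSV, 0.0122 ± 0.0287 in LPS and -0.0195 ± 0.0288 in control cells (SD, n = 5).

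The eIF4 group held 8 genes, most of them for proteins that act at the cap or with it, and also EIF4A3, the helicase of the exon junction complex. EIF4E, the cap-binding subunit that recruits the ribosome, had 6.28, 6.86, 6.93, 6.67 and 6.88 in LPS+RSV, 7.03, 7.02, 6.90, 7.14 and 7.13 in LPS, and 6.92, 7.27, 6.89, 6.81 and 6.64 in control cells. It was lower by 0.32 against LPS (-0.32 ± 0.13, adjusted p = 0.198), with LPS+RSV replicate 1 far below the others and only LPS replicate 3 within the LPS+RSV range. The difference was -0.21 without LPS+RSV replicate 1 and -0.15 with the proliferation score as a covariate. EIF4E2, a cap-binding homologue that does not bind the scaffold eIF4G and represses translation, had 8.61, 8.43, 8.37, 8.40 and 8.38 in LPS+RSV against 8.34, 8.29, 8.29, 8.29 and 8.34 in LPS (0.13 ± 0.06, adjusted p = 0.258), with no overlap. The other 6, among them EIF4B and EIF4H, cofactors of the helicase eIF4A, differed by between -0.08 and 0.11.

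Of the 9 factors of the eIF1, eIF5 and eIF6 group, 6 had a lower mean in LPS+RSV cells than in LPS cells. EIF5B, the GTPase that joins the subunits, had 8.52, 9.17, 9.21, 8.93 and 8.92 in LPS+RSV, 9.25, 9.43, 9.11, 9.50 and 9.37 in LPS, and 9.46, 9.45, 9.24, 9.18 and 9.16 in control cells. Its difference was -0.38 ± 0.12 against LPS (adjusted p = 0.153) and -0.35 ± 0.12 against control cells (adjusted p = 0.464), and -0.20 against LPS with the proliferation score as a covariate. LPS+RSV replicate 1 was again the lowest array. EIF5A2, a paralog of the factor that helps ribosomes through stalling sequences, had 7.69, 7.48, 7.92, 7.80 and 8.04 in LPS+RSV against 8.29, 8.46, 8.19, 7.86 and 8.0 in LPS, where replicates 1 and 2 were highest (-0.37 ± 0.14, adjusted p = 0.185). This difference was -0.23 without LPS replicates 1 and 2 and -0.63 with the proliferation score as a covariate, under which it passed the adjusted threshold. EIF1, EIF1B, EIF1AD, EIF5, EIF5AL1 and EIF5A differed by -0.03 to 0.13.

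The 4 kinases that phosphorylate the initiation factor eIF2 and so lower initiation under stress were split. EIF2AK3 (PERK), which responds to unfolded proteins in the endoplasmic reticulum, had 7.38, 7.45, 7.43, 7.37 and 7.45 in LPS+RSV against 7.78, 7.85, 7.41, 7.50 and 7.63 in LPS (-0.22 ± 0.09, adjusted p = 0.210). The LPS+RSV arrays agreed closely while the LPS arrays spread upwards, and without LPS replicates 1 and 2 the difference was -0.10. EIF2AK2 (PKR, which senses double-stranded RNA) differed by -0.08, EIF2AK4 (GCN2, which senses uncharged tRNA) by 0.07 and EIF2AK1 (HRI, the heme-regulated kinase) by 0.08, each with a 95% confidence interval that held 0. EIF2D, which acts on the small subunit in recycling and reinitiation and was the only eIF2-named factor besides the kinases, was 0.18 ± 0.09 higher (adjusted p = 0.305).

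The 6 genes of the elongation group, which include the inhibitory kinase EEF2K, differed by between 0.00 and 0.23, EEF1A2 (0.00, just below 0) being the 1 gene lower in LPS+RSV than in LPS. EEF1G, a subunit of the complex that recharges eEF1A with GTP, had 12.35, 12.16, 12.10, 12.07 and 12.13 in LPS+RSV, 11.87, 11.93, 12.001, 11.89 and 11.99 in LPS, and 12.10, 12.06, 12.04, 12.08 and 12.01 in control cells. LPS arrays lay below both other groups without overlap, by 0.23 ± 0.06 for LPS+RSV over LPS (adjusted p = 0.127), though its probe set is 1 of the 8 of uncertain identity and the mean of its probe sets differed by 0.11. EEF2, the translocase, had 13.20, 13.12, 13.05, 12.96 and 12.95 in LPS+RSV against 12.99, 12.99, 12.88, 12.94 and 12.97 in LPS (0.10 ± 0.06). EEF1A1, which carries aminoacyl-tRNAs to the ribosome, averaged 7.59 ± 0.10 in LPS+RSV, 7.59 ± 0.06 in LPS and 7.59 ± 0.11 in control cells (SD, n = 5), with a 95% confidence interval of -0.14 to 0.15 for LPS+RSV minus LPS. Its only probe set was far dimmer than those used for EEF2 and EEF1G, so the interval describes that probe set. How well the probe set follows the transcript was not tested. Of the 3 eEF1A methyltransferases, EEF1AKMT3 was 0.20 ± 0.07 higher, EEF1AKMT1 0.17 higher and EEF1AKMT2 differed by -0.10.

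**Figure D3:**
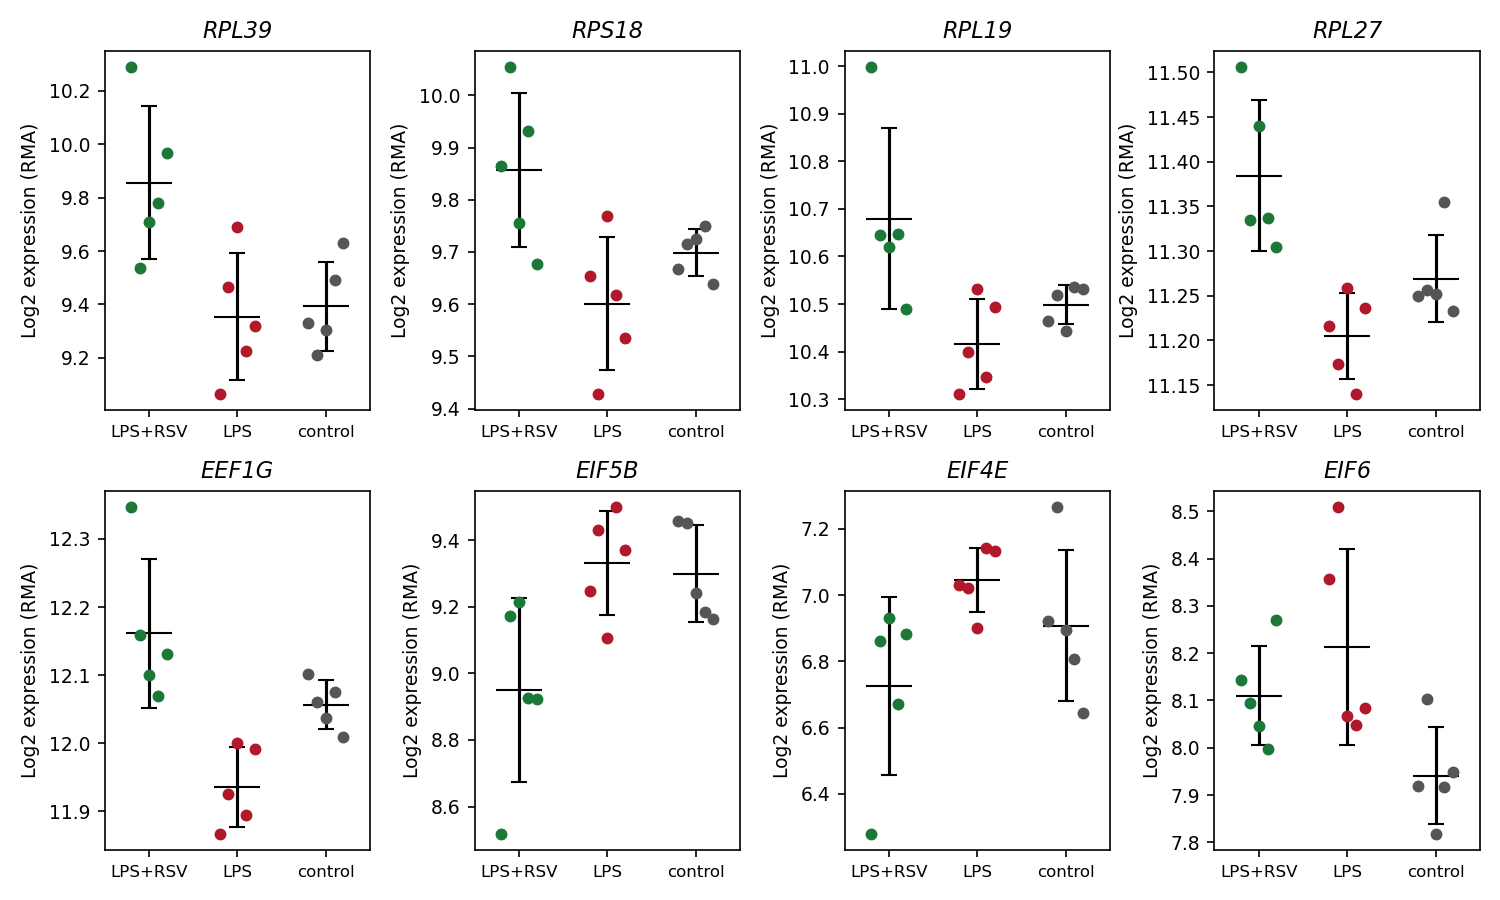
Log2 expression on each array (points) with group mean and SD (bars, n = 5) in LPS+RSV, LPS and control cells, each gene on its own axis that does not start at 0. RPL39, RPS18, RPL19, RPL27 and EEF1G sit higher in LPS+RSV than in LPS, EIF5B and EIF4E lower, and EIF6 sits highest on 2 LPS arrays.

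In LPS cells against untreated cells, ribosomal protein genes were slightly lower. Only 11 of 51 were higher (21.6%, against 52.7% of all genes), with a median of -0.040 (all genes 0.007) and a range of -0.17 to 0.14. No member passed the adjusted threshold (lowest adjusted p = 0.430), which 0.0254% of all genes passed. At an unadjusted p under 0.05, 1 member was higher (1.15%) and 3 lower (3.45%), beside 4.62% and 3.26% of all genes, so the share of higher members was below that of all genes and the share of lower members close to it. Without LPS replicates 1 and 2 the ribosomal protein genes stood at 19 of 51 higher with a median of -0.014. Epithelial markers also differed between arrays. KRT20, a keratin of differentiated intestinal cells, had 6.45, 5.34, 5.67, 5.63 and 5.80 in LPS+RSV, 7.62, 7.96, 6.34, 6.27 and 5.79 in LPS, and 5.44, 5.35, 5.54, 5.95 and 5.89 in control cells. It was highest on LPS replicates 1 and 2, where the ribosomal protein average was lowest (LPS minus control 1.16 ± 0.34, adjusted p = 0.351, and LPS+RSV minus LPS -1.02 ± 0.34, adjusted p = 0.166). The next highest array in KRT20, LPS+RSV replicate 1 at 6.45, had the highest ribosomal protein average of all, so the 2 did not run opposite throughout. SI, the sucrase-isomaltase of the brush border, differed by -0.42 ± 0.18 for LPS minus control (adjusted p = 0.587) and was lowest on LPS replicates 4 and 5. Of the 9 markers, 5 were higher in LPS than in control cells and 6 in LPS+RSV than in LPS cells, and their part in the ribosomal protein differences was not tested.

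The member highest relative to control cells was EIF6, which binds free large subunits and keeps them from joining small ones. It had 8.36, 8.51, 8.07, 8.05 and 8.09 in LPS against 7.92, 8.10, 7.82, 7.92 and 7.95 in control cells (0.27 ± 0.09, adjusted p = 0.430). LPS replicates 1 and 2 were highest and without them the difference was 0.13. RPL30 had 6.54, 6.57, 6.67, 6.39 and 6.48 in LPS against 6.74, 6.68, 6.69, 6.66 and 6.74 in control cells (-0.17 ± 0.07, adjusted p = 0.560), and RPL41 was lower by a like amount (-0.16 ± 0.06, adjusted p = 0.544), or by -0.08 as the mean of its probe sets. Also lower was RPL34-DT, a divergent RNA at the RPL34 gene (-0.26 ± 0.12, adjusted p = 0.634), which differed by -0.14 with the proliferation score as a covariate. EEF1G was the 1 member whose LPS arrays lay wholly below the control arrays, and 0 lay wholly above, beside 1.13% and 1.08% of all genes. Factor genes had a median difference of 0.028, and 18 of 28 were higher in LPS. That median was -0.003 with the proliferation score as a covariate.

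In LPS+RSV cells against untreated cells, ribosomal protein genes were again mostly higher. Of the 51 ribosomal protein genes 36 were higher (70.6%, against 55.8% of all genes), with a median of 0.050 (all genes 0.020), and of the 28 factor genes 18, with a median of 0.050. Here 0% of all genes, and so no member, passed the adjusted threshold (lowest adjusted p of a member = 0.464). At an unadjusted p under 0.05, 5 members were higher (5.75%) and 1 lower (1.15%), beside 4.09% and 6.4% of all genes. These comparisons share arrays with the ones above and are not independent of them.

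The 5 higher members were RPL39 (0.46 ± 0.14), EEF2K (0.29 ± 0.09), RPS15A (0.25 ± 0.09), RPL31 (0.21 ± 0.10) and RPL19 (0.18 ± 0.08), all with an adjusted p of 0.464. RPL19 differed by 0.10 without LPS+RSV replicate 1 and by 0.33 as the mean of its probe sets, and RPL39 by 0.27 as that mean. EIF5B was the 1 lower member, at -0.22 with array weights. EEF2K, the kinase that inactivates eEF2, had 8.23, 7.78, 7.87, 8.04 and 8.10 in LPS+RSV, 7.90, 7.92, 7.83, 7.72 and 7.69 in LPS, and 7.56, 7.55, 7.75, 7.90 and 7.80 in control cells. Its groups overlapped, since LPS+RSV replicate 2 lay below 2 control arrays. RPS15A had 9.33, 9.29, 9.04, 9.05 and 9.19 in LPS+RSV against 9.07, 9.10, 8.95, 8.80 and 8.70 in control cells, which overlapped as well. RPL10 was the 1 member wholly above the control arrays (0.07 ± 0.05), and 0 lay wholly below, beside 0.627% and 1.09% of all genes.

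Ribosomal protein genes varied little between arrays, which set how small a difference could be seen. Their residual SD had a median of 0.090, against 0.157 over all genes, and the 95% confidence interval of a difference reached a median of 0.143 to either side for ribosomal proteins and 0.183 for factors. For LPS+RSV minus LPS the interval lay within 0.5 log2 units of 0 for 80 of the 87 tested members, for LPS minus control for 84 and for LPS+RSV minus control for 83. RPS27L, a p53-responsive paralog of RPS27, EEF1AKMT2 and EIF5AL1 were among the most variable members, with residual SDs of 0.313, 0.306 and 0.329.

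Genes that build ribosomes and charge tRNAs were read beside the members from lists chosen by function. In LPS+RSV against LPS, 19 of 24 ribosome biogenesis genes were lower (median -0.112). Of these, 9 had an unadjusted p under 0.05, a level at which 10.5% of all genes were lower. In LPS against control 21 of 24 were higher (median 0.119). None passed the adjusted threshold. WDR43, a component of the small subunit processome, was lower by 0.63 in LPS+RSV than in LPS (-0.63 ± 0.15, adjusted p = 0.0999), and NOLC1, a nucleolar chaperone of small nucleolar ribonucleoproteins, by 0.51 (-0.51 ± 0.16, adjusted p = 0.153). NOP2, a methyltransferase of the large subunit's RNA, differed by -0.23 ± 0.07 for LPS+RSV minus LPS and by 0.29 ± 0.07 for LPS minus control. The biogenesis genes thus stood on the other side from the ribosomal proteins themselves in both comparisons, which share the LPS arrays. With the proliferation score as a covariate their medians were -0.038 for LPS+RSV minus LPS, with 15 of 24 lower, and 0.061 for LPS minus control.

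Of 17 cytosolic aminoacyl-tRNA synthetases, which load amino acids onto tRNAs, 15 had a lower mean in LPS+RSV cells than in LPS cells (median -0.184), with TARS1 at -0.50 ± 0.17 and QARS1 on the other side at 0.16 ± 0.06. This count turned round with the proliferation score as a covariate, under which 14 of 17 were higher (median 0.065). In LPS minus control 14 of the 17 were higher (median 0.153), with TARS1 at 0.37 ± 0.17. With the covariate 9 were higher there (median 0.002). In LPS+RSV minus control 8 were higher and 9 lower (median -0.019). Of 6 genes of termination, recycling and poly(A) binding, PAIP1 and PAIP2 among them, 5 were lower (median -0.182). GSPT1, a release factor, was lower by 0.32 (-0.32 ± 0.11) and its paralog GSPT2 higher (0.27 ± 0.10). With the proliferation score as a covariate 4 of the 6 were lower (median -0.044). In the integrated stress response, the program downstream of the eIF2 kinases, ATF4 differed by -0.11 ± 0.08 and 5 of 7 genes were lower. With the proliferation score as a covariate 4 of 7 were lower (median -0.04). In LPS+RSV minus LPS the 1 gene of this list at an unadjusted p under 0.05 was SESN2. It was higher (0.27 ± 0.09), beside 8.08% of all genes higher and 10.5% lower. In LPS minus control 6 of the 7 genes of the list were higher (median 0.087), with TRIB3 at 0.47 ± 0.15. In LPS+RSV minus control 4 were higher and 3 lower (median 0.002).

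The mTORC1 and cap-binding list held 13 tested genes, 9 of which were higher in LPS+RSV than in LPS (median 0.115). At an unadjusted p under 0.05, 6 were higher and 0 lower, beside 8.08% of all genes higher and 10.5% lower. These were DEPTOR (0.40 ± 0.13) and AKT1S1 (0.21 ± 0.09), which inhibit mTOR complexes from within, and TSC2 (0.21 ± 0.07) and SESN2 (0.27 ± 0.09), which hold mTORC1 back from upstream. The others were PDCD4 (0.17 ± 0.08), an inhibitor of eIF4A, and MKNK2 (0.20 ± 0.09), a kinase of eIF4E. None passed the adjusted threshold (adjusted p = 0.164 to 0.264). In LPS minus control 8 of the 13 genes were lower (median -0.055), with DEPTOR at -0.36 ± 0.13 and PDCD4 at -0.26 ± 0.08. In LPS+RSV minus control 9 of the 13 were higher (median 0.045), with DEPTOR at 0.04, PDCD4 at -0.09 and SESN2 at 0.33 ± 0.09. These comparisons share arrays. EIF4EBP1 and EIF4EBP2, which block eIF4E when unphosphorylated and fall outside the selection by the ending of their symbols, differed by 0.02 ± 0.19 and 0.12 ± 0.06. MTOR itself differed by -0.05 ± 0.06.

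**Figure D4:**
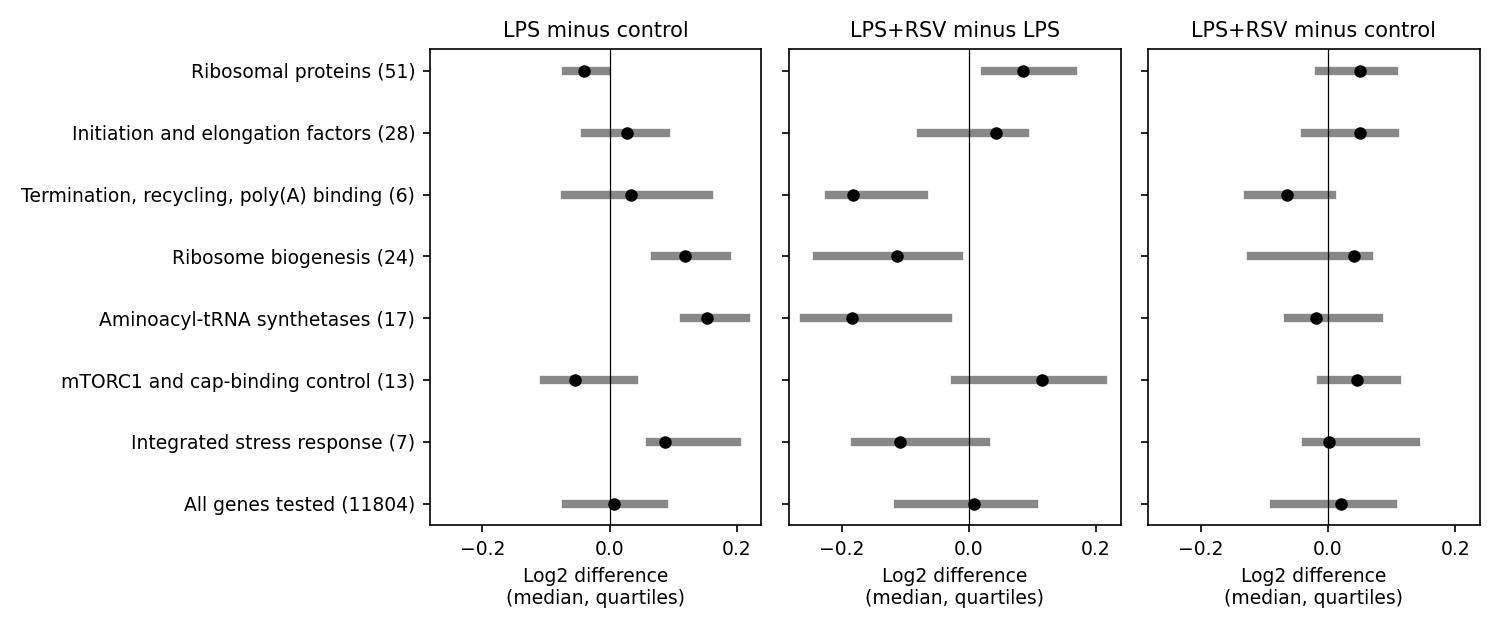
Median (point) and interquartile range (bar) of the log2 differences within each gene list in LPS minus control, LPS+RSV minus LPS and LPS+RSV minus control, with the number of genes tested in brackets. For LPS+RSV minus LPS the ribosomal protein median is 0.086, while those of ribosome biogenesis and aminoacyl-tRNA synthetase genes are -0.112 and -0.184, and all genes center on 0.008.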

How the data were processed

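RNA of Caco-2 cells was hybridised to Affymetrix whole-transcript arrays, 15 in 3 groups of 5. The authors deposited log2 values made with RMA, per the submitters' processing notes, which give no version. Of 53617 rows, 16098 carried 1 gene symbol in the platform annotation, which can be old, and 37519 were unnamed here. Each symbol was represented by its brightest row over the 15 arrays, no pseudocount was added, and dim genes were left out by the 40th percentile rule, leaving 11804.

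A model with 1 mean per group was fitted to the 15 arrays together (limma 3.58.1 under R 4.3.3, with lmFit, contrasts.fit and eBayes). P-values were adjusted by Benjamini-Hochberg over all 11804 genes of a comparison, and every adjusted p of a gene is limma's. The number of arrays limits the precision. The fit was tested on simulated data in which genes varied independently and no array stood apart. The changes put in were larger than most differences of members, so that test does not cover differences as small as theirs.

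Members and lists were chosen with earlier results of these data known. Genes are named if called, or if among the 8 of lowest p in each direction with an unadjusted p under 0.05. RPLP0, RPL3, RPS6, EEF1A1, EEF2, EEF2K, EIF4E, EIF4G1, EIF2S1 and EIF2AK3 are named whatever their change, and other names were chosen after their values were seen. Among 119 symbols with the prefixes, 27 were left out for ending in P and a number (EIF4EBP1, EIF4EBP2 and RPS19BP1 with 24 pseudogene symbols) and 2 as RPS6K symbols. Samples with the same replicate number were taken as paired only if the deviations from their group means correlated above 0.1 for every number. In no comparison did they: correlations were -0.541 to 0.119 in LPS against control, -0.37 to 0.098 in LPS+RSV against LPS, and 0.707, 0.427, 0.101, 0.062 and -0.441 for numbers 2, 5, 4, 3 and 1 in LPS+RSV against control. Alternatives were other filters, row choices, scalings and variance models, a replicate block, a proliferation covariate and left-out arrays. Counts of genes on each side of 0 under these were added after the data were seen.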

Additional observations from a re-analysis of the deposited data

Results flagged for a closer look

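The arrays of a part of the genes named above were examined for a single array far from the rest of its group, in 69 groups of 5. Other named genes lay outside this check. Among them were EIF4E2, with LPS+RSV replicate 1 at 8.61 and the other LPS+RSV arrays at 8.37 to 8.43, and RPL36AL, with control replicate 5 at 7.82 and the other control arrays at 7.47 to 7.54. Chance marks about 1 group in 20 (5%), and 2 of the 69 (2.9%) were marked. RPL27 was highest in control replicate 4, with a gap to the next array of 0.815 of the group's range, and RPS6 was lowest in LPS+RSV replicate 2, with a gap of 0.796 of the range, both above the critical value of 0.710 for 5 arrays.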

How the results depend on the processing

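No member was called in any comparison under the other filters, row choices, scalings, variance models and left-out arrays, with 1 exception: with the proliferation score as a covariate 1 was called in LPS+RSV against LPS (EIF5A2, -0.627). All 440 values of the named genes under alternatives kept their sign. These genes were named for their low p in the same data. Several alternatives, such as the fit without a filter, the variance models and the replicate block, leave a log2 difference unchanged by construction. The kept signs are thus no independent check. In LPS against control the covariate gave 4 members higher and 6 lower at an unadjusted p under 0.05, and a factor median of -0.003. Without LPS replicates 1 and 2 together, 0 were higher there. In LPS+RSV against LPS, 2 were lower at that level under the covariate and 2 without LPS replicates 1 and 2, where the ribosomal protein median was 0.060. The causes were not tested.

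Leaving out 1 array at a time gave 0 called members throughout. At an unadjusted p under 0.05 it gave 1 to 2 higher and 0 to 4 lower in LPS against control, 11 to 16 and 2 to 5 in LPS+RSV against LPS, and 3 to 9 and 1 to 3 in LPS+RSV against control. In LPS against control, 2 were higher without LPS or control replicate 4, and 1 and 0 were lower without LPS replicates 4 and 5. In LPS+RSV against LPS, 2 were lower without LPS replicate 2. In LPS+RSV against control, 3 were higher without LPS+RSV replicate 1 or 4 or control replicate 3 or 5, and 9 without LPS+RSV replicate 5, and 2, 2 and 3 were lower without LPS+RSV replicates 1, 2 and 5. Ribosomal protein medians were -0.046 to -0.025, 0.076 to 0.098 and 0.041 to 0.061 in these comparisons, and factor medians 0.009 to 0.041, 0.008 to 0.063 and 0.002 to 0.086, the 0.002 without LPS+RSV replicate 2. With a replicate block the called members were 0 in each comparison, and 1, 12 and 5 were higher and 2, 5 and 1 lower at an unadjusted p under 0.05. No replicate number correlated best with its own partner in LPS against control or in LPS+RSV against LPS (0 of 5 each), and 3 of 5 did in LPS+RSV against control. Dim probe sets limit what can be seen of low genes.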
